A study of Homo sapiens with 6 samples.

Results

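The genes described here are 10 genes of the ATF4 and CHOP stress response, namely ATF4, DDIT3, TRIB3, CHAC1, CHAC2, ASNS, CEBPB, CEBPG, NUPR1 and PPP1R15A. They were found by an exact match of the gene symbol in the platform annotation, which gave 14 probe sets of the 54675 on the array, and every member had at least 1. Cells of the human B lymphoid line RL, an established line labelled t(14,18)+, were grown without treatment as multicellular aggregates of lymphoma cells (MALC) and collected after 10 days, or were grown in suspension and collected in exponential phase. Each culture form had 3 samples with 1 Affymetrix U133 Plus array each, and no label says whether a group's samples were grown apart, which leaves p-values that cover sample-to-sample spread and may be technical. No culture day is given for the suspension samples, so culture form cannot be told apart from the time or phase of collection. All results come from a single cell line.

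ATF4 and CHOP (the product of DDIT3) are transcription factors of the integrated stress response. In that response, kinases that sense amino acid shortage, unfolded protein in the endoplasmic reticulum, viral RNA or low heme phosphorylate the initiation factor eIF2, which lowers protein synthesis in general while the ATF4 messenger is translated more. ATF4 protein then acts with C/EBP factors on genes for amino acid supply, glutathione turnover and feedback control, and CHOP adds targets that favour cell death when the stress lasts. ATF4 is controlled largely at translation, and the arrays measured only RNA.

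Promoters are shown for the member that rose (DDIT3), the member that fell most (CHAC2), its relative CHAC1, and ASNS, whose promoter and that of CHAC1 held the composite C/EBP-ATF core searched for here. The sequences come from RefSeq (GRCh38.p14), run from 250 bases before to 50 after the annotated start, and are written 5′ to 3′ on the gene's strand; capitals mark a match to TGATGNAA on either strand.
DDIT3, chr12:57520465-57520764, minus strand: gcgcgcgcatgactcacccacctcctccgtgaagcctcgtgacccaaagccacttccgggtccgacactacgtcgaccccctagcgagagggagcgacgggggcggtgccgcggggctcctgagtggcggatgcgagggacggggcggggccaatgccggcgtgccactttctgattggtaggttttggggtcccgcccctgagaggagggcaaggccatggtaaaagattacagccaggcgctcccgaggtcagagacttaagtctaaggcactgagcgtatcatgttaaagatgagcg
CHAC2, chr2:53767533-53767832, plus strand: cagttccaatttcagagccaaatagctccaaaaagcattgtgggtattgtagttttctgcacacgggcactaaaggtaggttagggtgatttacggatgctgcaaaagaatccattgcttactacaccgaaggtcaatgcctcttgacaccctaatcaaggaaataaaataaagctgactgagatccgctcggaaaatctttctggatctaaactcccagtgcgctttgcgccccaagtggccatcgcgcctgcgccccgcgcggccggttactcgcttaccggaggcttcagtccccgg
CHAC1, chr15:40953221-40953520, plus strand: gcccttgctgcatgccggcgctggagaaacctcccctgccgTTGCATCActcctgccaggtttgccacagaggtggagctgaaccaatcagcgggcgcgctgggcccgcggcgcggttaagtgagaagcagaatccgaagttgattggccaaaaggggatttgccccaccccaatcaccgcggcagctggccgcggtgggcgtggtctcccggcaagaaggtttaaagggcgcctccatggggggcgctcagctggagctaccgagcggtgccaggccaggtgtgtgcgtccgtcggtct
ASNS, chr7:97872359-97872658, minus strand: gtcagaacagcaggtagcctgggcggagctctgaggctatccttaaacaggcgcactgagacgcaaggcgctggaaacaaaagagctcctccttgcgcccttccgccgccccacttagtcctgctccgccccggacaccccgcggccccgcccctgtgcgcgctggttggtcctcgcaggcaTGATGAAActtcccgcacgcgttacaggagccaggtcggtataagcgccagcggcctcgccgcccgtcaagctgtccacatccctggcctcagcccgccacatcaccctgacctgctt
The motif was found in 2 of the 9 members that had a promoter entry. It was found in 3.67% of all 27305 promoters of this length and in 2.0% of the 10941 whose gene was tested here. In ASNS it lay on the gene's strand with its first base at -68 (TGATGAAA), and in CHAC1 on the other strand at -209 (TTGCATCA), both counted from the annotated start. These are matches of letters within the window, and binding was not measured. Bases outside the window were not searched, so a member shown without a match, such as DDIT3, may hold one there.

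Signals are linear values as deposited, with array medians of 80.7 to 81.7, and changes are MALC minus suspension on the log2(signal + 16) scale. Samples that share a number could be treated as pairs, and a blocked fit on that number is quoted beside a named gene whose call it changes and a count that it moves by over 1.5 times. MALC 1 stood apart from the other aggregates: it correlated at 0.9951 and 0.9955 with MALC 3 and MALC 2, which correlated at 0.9984 with each other, and its correlations with the suspension arrays (0.9874 to 0.9888) were above theirs (0.9768 to 0.9815). Suspension 1 correlated at 0.9949 and 0.9955 with suspension 2 and suspension 3, which reached 0.9985 with each other. The 5 B cell markers measured had summed signals between 27829 and 31909 in the MALC arrays and between 28004 and 33433 in the suspension arrays. Markers of T cells (4 genes, sums between 328 and 339 for MALC and between 326 and 370.2 for suspension) and of myeloid cells (4 genes, between 135 and 149.7 for MALC and between 143 and 158 for suspension) were dim in both forms, and of the 3 and 1 that were bright enough to be tested none passed. The 4 stromal markers had sums between 427 and 464 in the MALC arrays and between 494 and 921 in the suspension arrays, the highest sum being that of suspension 2; none of the 3 tested passed, COL3A1 being under the filter, and their part in the results was not tested. Control probe sets gave a GAPDH ratio of 3′ over 5′ signal between 1.01 and 1.02 for MALC and between 1.04 and 1.06 for suspension, an ACTB ratio between 1.22 and 1.33 for MALC and between 1.31 and 1.54 for suspension, and the part of RNA quality in the results was not tested.

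DDIT3 rose about 2-fold in aggregates and CHAC2 fell to 0.391 of its suspension level, whereas ATF4 itself differed by a log2 change of -0.02. NUPR1 fell slightly, and the other 6 genes did not pass the test. For each of those 6, MALC 1 was the highest of all arrays by the brightest probe set, while MALC 2 and MALC 3 lay within or below the suspension range, apart from PPP1R15A in MALC 3. Of the 13 probe sets tested, 1 was called higher and 2 lower in MALC, against 21.2% and 20.4% of all 32768 probe sets tested, so calls were no more frequent among the stress genes than on the array. Groups did not overlap for 3 of the 13, against 56.1% of all probe sets. The tests were limma with Benjamini-Hochberg adjustment over all probe sets tested.

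**Figure D1:**
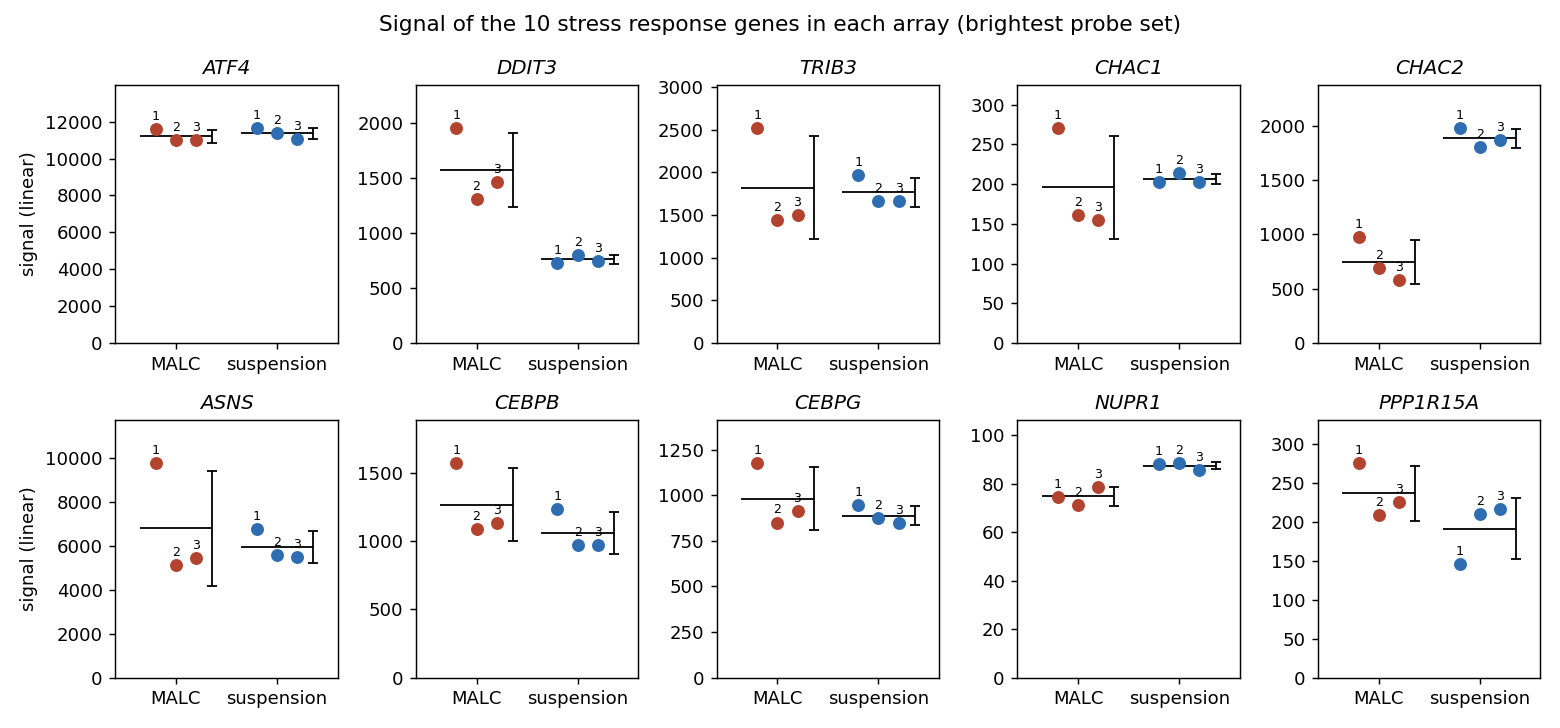
Linear signal of each stress response gene (brightest probe set) in the 3 MALC arrays (red) and 3 suspension arrays (blue), with the sample number at each point, the mean as a line and the SD as a bar; each panel has its own axis from 0. DDIT3 lies above and CHAC2 and NUPR1 lie below the suspension values in all 3 MALC arrays, and MALC 1 is the highest of the 3 aggregates for every gene except NUPR1.

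ATF4, the factor at the head of the response, had signals of 11603, 11021 and 10992 in MALC 1, 2 and 3 and of 11664, 11412 and 11042 in suspension 1, 2 and 3. The groups overlapped and no array stood out. The means were 11205 ± 345 in MALC and 11373 ± 313 in suspension (SD, n = 3 each), and the log2 change of -0.02 had a 95% interval of -0.11 to 0.07 (limma adjusted p = 0.687). These values come from the only probe set of ATF4 in the platform annotation. The sign of the log2 change turned, to 0.060, after quantile normalization.

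DDIT3, whose product CHOP is induced by ATF4 and dimerises with C/EBP factors, had signals of 1956, 1311 and 1466 in MALC 1, 2 and 3. In suspension it had 729, 804 and 744. Every aggregate lay above every suspension sample, and MALC 1 was the highest. The mean was 1578 ± 337 in MALC and 759 ± 39.5 in suspension, a 2.03-fold rise (log2 change 1.02, standard error 0.14, 95% interval 0.69 to 1.35, limma adjusted p = 0.00136). Of all probe sets tested, 3.33% were called higher in MALC with a change over 2-fold. Without MALC 1 the log2 change was 0.86 (limma adjusted p = 0.000217). By sample number, the log2 differences were 1.40, 0.69 and 0.96 for samples 1, 2 and 3, higher in MALC in 3 of 3. DDIT3 thus rose where the RNA of ATF4 did not pass.

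CEBPB, a C/EBP factor that partners both ATF4 and CHOP, had 1575, 1091 and 1137 in MALC and 1236, 974 and 972 in suspension. The sample numbered 1 was the highest of its group in both culture forms, and the groups overlapped. The log2 change of 0.24 (standard error 0.16) did not pass (limma adjusted p = 0.248). Blocked on sample number it passed (limma adjusted p = 0.0289), the differences within numbers being 0.35, 0.16 and 0.22, higher in MALC in 3 of 3. Without MALC 1 the log2 change was 0.078 (limma adjusted p = 0.604), and without both arrays numbered 1 it was 0.19 (limma adjusted p = 0.00614).

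CEBPG, a C/EBP factor that lacks its own activation domain and works through dimers, among them with ATF4, was measured by a pair of probe sets that did not move alike. The brighter one, 225527_at, had 1178, 850.1 and 915 in MALC and 945, 873 and 847 in suspension (log2 change 0.13, limma adjusted p = 0.433). The other, 204203_at, had 1078, 642 and 626 in MALC and 952, 989.6 and 951 in suspension (log2 change -0.34, adjusted p = 0.189). In 204203_at, MALC 1 lay above all suspension samples and MALC 2 and MALC 3 below them. Without MALC 1 the log2 change of 204203_at was -0.59 (adjusted p = 0.000386) and that of 225527_at -0.0087 (adjusted p = 0.937), so the CEBPG direction depended on the probe set as well as on that array.

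NUPR1, a small stress-induced chromatin-associated regulator, had 74.4, 71.2 and 78.8 in MALC and 88, 88.7 and 85.8 in suspension. It was the one member for which MALC 1 was not the highest aggregate. All aggregates lay below all suspension samples, with a log2 change of -0.19 (limma adjusted p = 0.0324), at a signal close to the array median, where detection over background is unknown. The call did not hold when blocked on sample number (adjusted p = 0.0589) or without any array except MALC 3 (adjusted p up to 0.112).

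Among the target genes, CHAC1 and CHAC2 encode related enzymes that break down glutathione, and CHAC1 is the one known as an ATF4 and CHOP target. CHAC2 had 973, 686 and 575 in MALC 1, 2 and 3 and 1978, 1804 and 1869.7 in suspension 1, 2 and 3. The highest aggregate lay far below the lowest suspension sample. The means were 745 ± 206 in MALC and 1884 ± 87.8 in suspension, 2.56-fold lower in MALC (log2 change -1.35, standard error 0.17, 95% interval -1.75 to -0.95, limma adjusted p = 0.000998), and 0.803% of all probe sets tested were called lower in MALC with a change over 2-fold. Leaving out any 1 array gave log2 changes from -1.56 to -1.19, with adjusted p up to 0.0074.

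CHAC1 had 271, 162 and 155 in MALC and 203, 214 and 202 in suspension. MALC 1 was the highest of the 6 arrays and MALC 2 and MALC 3 were the lowest. The groups overlapped, and the log2 change of -0.11 (95% interval -0.54 to 0.32) did not pass (limma adjusted p = 0.656). Without MALC 1 it was -0.35 with adjusted p = 0.00571, and without MALC 3 it was 0.023. The mean of 196 ± 65 in MALC lay between the signal of MALC 1 and those of MALC 2 and MALC 3, and the mean in suspension was 206 ± 6.47.

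ASNS, asparagine synthetase and a classical target of ATF4, had 9768, 5132 and 5438 in MALC 1, 2 and 3. In suspension it had 6771, 5575 and 5468. The MALC 1 signal was 1.85 times the mean of MALC 2 and MALC 3, and suspension 1 was likewise the highest of its group, at 1.23 times the mean of the other two. The log2 change of 0.13 had a 95% interval of -0.40 to 0.67 (limma adjusted p = 0.665) and was -0.16 without MALC 1. A dim probe set, 241082_at, with 36.1, 24.3 and 23.3 in MALC and 28.2, 24.5 and 24.4 in suspension, was under the filter and not tested. Its highest signal was again in MALC 1.

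The feedback genes TRIB3 and PPP1R15A are both induced in this response. TRIB3, a pseudokinase that binds ATF4 and CHOP and dampens them, had 2519, 1439 and 1504 in MALC and 1965, 1668 and 1663 in suspension by probe set 218145_at. The MALC 1 signal was the highest of the 6 and those of MALC 2 and MALC 3 were the lowest, as for CHAC1. The log2 change was below 0.01 in size over all arrays (95% interval -0.47 to 0.47, limma adjusted p = 0.998) and -0.26 without MALC 1 (adjusted p = 0.0488). A dimmer probe set of the gene, 1555788_a_at, had 259, 192 and 193 in MALC and 218, 191 and 188 in suspension, and did not pass (log2 change 0.09, adjusted p = 0.581).

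PPP1R15A encodes GADD34, the subunit that directs a phosphatase to eIF2 and so ends the response. Its brighter probe set, 37028_at, had 276, 209 and 226 in MALC and 146, 211 and 217 in suspension. MALC 1 was the highest array and suspension 1 the lowest, unlike CEBPB and ASNS, for which suspension 1 was the highest of its group. The log2 changes of 0.30 for 37028_at and 0.21 for the dimmer 202014_at did not pass (limma adjusted p = 0.167 and 0.219). The 202014_at signals were 163, 118 and 137 in MALC and 99.3, 132 and 122 in suspension. The difference between MALC and suspension samples numbered 1 was 0.85 by 37028_at on the log2 scale, whereas it was -0.01 and 0.06 for samples 2 and 3.

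**Figure D2:**
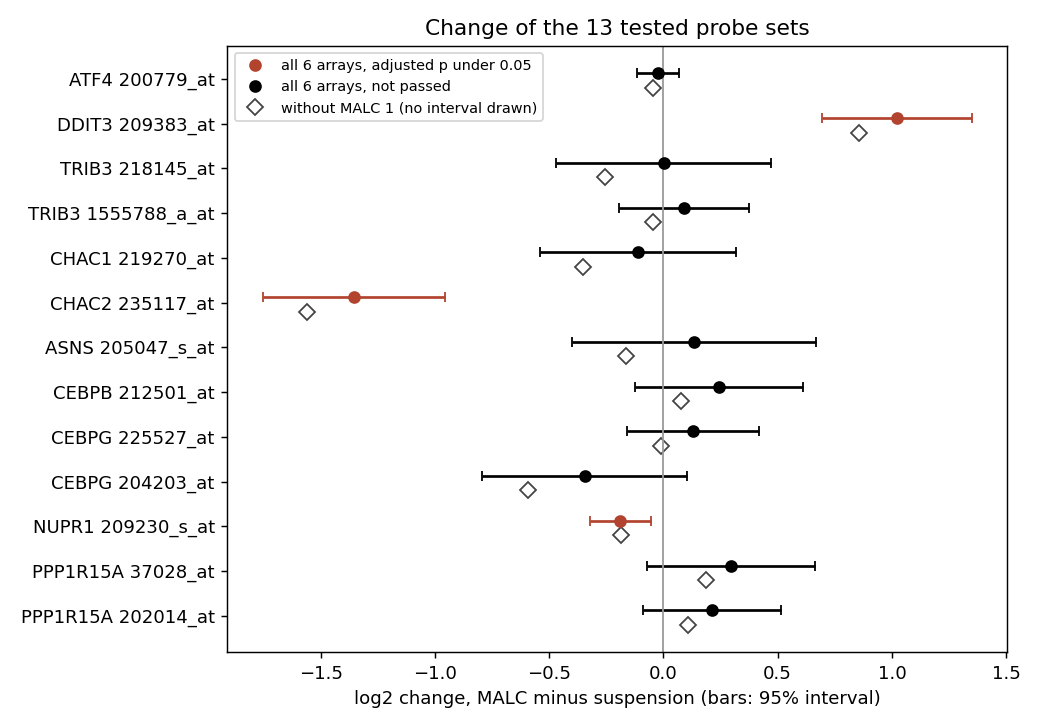
Log2 change, MALC minus suspension, of the 13 tested probe sets over all 6 arrays (circles with 95% intervals, red where the adjusted p is under 0.05) and without MALC 1 (diamonds). Apart from NUPR1, whose diamond lies at -0.19, every diamond lies to the left of its circle, and only DDIT3, CHAC2 and NUPR1 are red.

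Across the 3 aggregates most of the stress genes were high in MALC 1. It was the highest aggregate for 12 of the 13 probe sets tested (92.3%), against 40% of all probe sets tested, and the highest of all 6 arrays for 10 of the 13 (76.9%), against 9.88%. For 5 of the 13 (38.5%) the MALC 1 signal exceeded 1.5 times the mean of MALC 2 and MALC 3, against 1.49% of all. These were ASNS, TRIB3, CHAC1, CHAC2 and the 204203_at probe set of CEBPG. For CHAC2 the MALC 1 signal lay below every suspension sample, whereas for the others it was the highest of all 6 arrays. The median ratio of MALC 1 to the mean of MALC 2 and MALC 3 was 1.41 over the 13 and 1.00 over all probe sets tested. ATF4 was at 1.05 and NUPR1 at 0.992. These counts describe 3 arrays, probe sets of 1 gene are not independent, and no test was made. The members were also chosen with earlier results of these data known. In suspension the array numbered 1 was the highest of its group for 7 of the 13 (53.8%), against 46.1% of all, and the median ratio of suspension 1 to the mean of the other two was 1.04 over the 13.

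**Figure D3:**
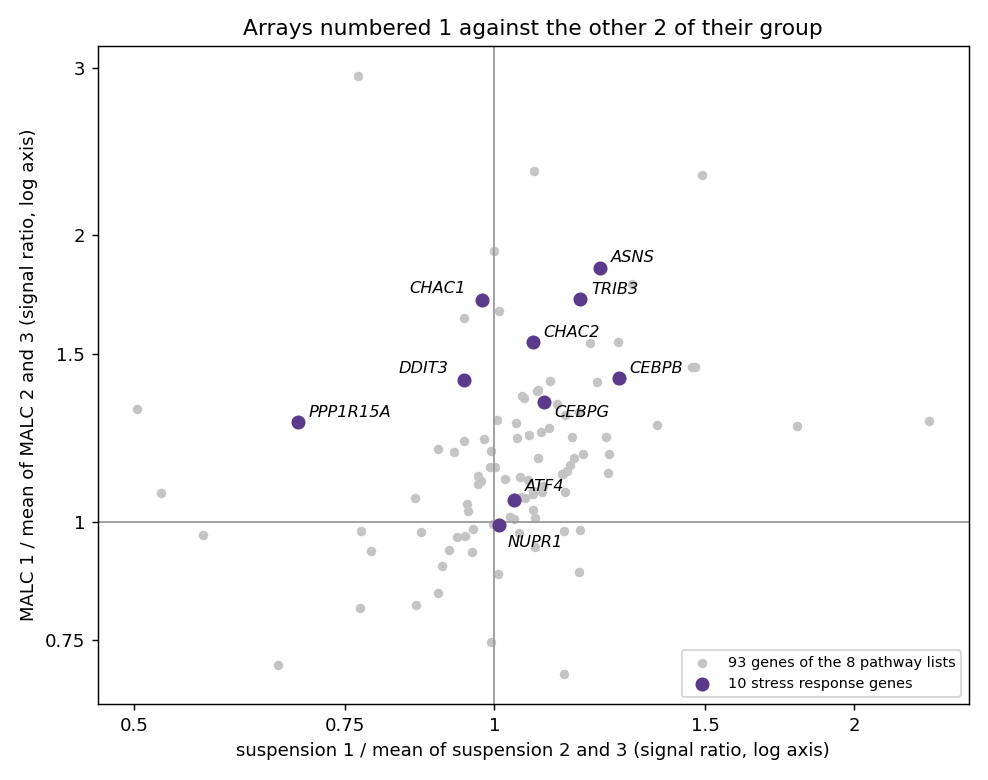
Ratio of suspension 1 to the mean of suspension 2 and 3 (x, log axis) against the ratio of MALC 1 to the mean of MALC 2 and 3 (y, log axis), for the 10 stress response genes by their brightest probe set (purple) and 93 genes of related lists (grey). ASNS is the highest of the 10 at 1.85, ATF4 and NUPR1 lie near 1 on both axes, and PPP1R15A lies to the left at 0.685.

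Other genes of the response were read from 8 lists of 104 genes, of which 98 had a probe set of their own and 93 were tested, each by its brightest probe set. Of these, 20 were called higher and 25 lower in MALC, against 18.6% and 22.7% of all 13765 genes tested. The median log2 change of all genes was -0.06.

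Upstream of ATF4, all 5 genes of the exchange factor eIF2B fell. Of 15 tested genes of that list, which also holds the eIF2 kinases, 6 fell and 3 rose (median log2 change -0.08). EIF2S1, the eIF2 subunit that is phosphorylated, had 4276 ± 556 in MALC and 7107 ± 288 in suspension (1.67-fold lower, adjusted p = 0.000879). The eIF2B subunit genes EIF2B3 and EIF2B4 were 1.70- and 1.43-fold lower (adjusted p = 0.00131 and 0.00288), and the call of EIF2B5 was lost without MALC 2, MALC 3 or suspension 2 (adjusted p up to 0.0564). The rises were those of EIF2S3, another eIF2 subunit gene (1.38-fold, adjusted p = 0.00397), EIF2AK1, the heme-regulated kinase HRI (1.32-fold, adjusted p = 0.00788), and EIF2AK4. EIF2S3 and EIF2AK1 fall outside the naming rule and were named after their values were seen. EIF2AK4, the amino acid sensing kinase GCN2, rose 1.33-fold (adjusted p = 0.04, up to 0.134 when MALC 2, MALC 3, suspension 1 or suspension 3 was left out). EIF2AK3, the endoplasmic reticulum kinase PERK, had 2575, 2425 and 2381 in MALC and 1693, 3150 and 3287 in suspension, and missed the threshold (adjusted p = 0.804). Suspension 1 was the lowest of all 6 arrays for EIF2AK3, as it was for PPP1R15A.

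Of 8 tested bZIP partners, 2 rose and none fell (median 0.17). ATF2 rose 1.54-fold (adjusted p = 0.000668) by its brightest probe set. ATF3, a stress-induced repressor, had 382, 129 and 131 in MALC and 61.1, 84.1 and 74.7 in suspension by its brightest probe set, a 2.30-fold rise (adjusted p = 0.0316). MALC 1 was again far above the other aggregates, and without it the log2 change was 0.72 (adjusted p = 0.00195) in place of 1.20. Another ATF3 probe set had a log2 change of 0.16 against 1.20 and did not pass (adjusted p = 0.417), and the ATF3 call was lost without any of the suspension arrays (adjusted p up to 0.0865). ATF5 and JDP2, named after their values were seen, had MALC 1 at 1.67 and 1.92 times the mean of MALC 2 and MALC 3 and did not pass.

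Of 12 tested genes of amino acid and one-carbon synthesis, 1 rose and 3 fell (median -0.06), among them ALDH18A1 and PYCR1, which act in proline synthesis (1.49- and 1.27-fold lower, adjusted p = 0.000988 and 0.0123), and GOT1, an aspartate aminotransferase (1.35-fold lower, adjusted p = 0.0253). Blocked on sample number, 2 rose and 4 fell. Of 8 amino acid transporter genes, 1 rose and 3 fell (median -0.19). SLC7A5, a carrier of large neutral amino acids, was 1.63-fold lower (adjusted p = 0.0167) and SLC7A1, a carrier of cationic ones, 1.51-fold lower (adjusted p = 0.00112; its dimmest tested probe set, with a log2 change of -0.09, did not pass), while SLC38A2, which takes up glutamine and other small neutral amino acids, rose 1.41-fold (adjusted p = 0.006). The PYCR1 call was lost without MALC 2 or suspension 3 (adjusted p up to 0.0541), that of GOT1 without any array except MALC 1 and suspension 2 (up to 0.0923), and that of SLC7A5 without MALC 2 or MALC 3 (up to 0.0658). SLC7A11, the cystine carrier, named after its values were seen, had MALC 1 at 2.34 times the mean of MALC 2 and MALC 3 and did not pass (adjusted p = 0.926).

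The list of tRNA synthetase genes and XPOT, a tRNA exporter, was also high in MALC 1, but less so, and was high in suspension 1 as well. The median ratio of the array numbered 1 to the mean of the others was 1.26 in MALC and 1.12 in suspension. In MALC it exceeded 1.5 for 0 of the 12 genes tested, against 4 of the 10 stress genes by brightest probe set. The share was 3 of 8 for the bZIP partners (37.5%) and 2 of 8 for the amino acid transporters. The ATF6 and IRE1 branches held 2 of 16, the synthesis list 1 of 12 and the other stress targets 1 of 14. The eIF2 and glutathione lists held 0. MALC 1 was the highest aggregate for 87.5% of the transporters. In the lists other than these and the tRNA synthetases that share was 50% to 75%. In the tRNA synthetase list, all 12 tested genes were highest in MALC 1 among the aggregates, against 44.1% of all genes tested. In suspension, 11 of 12 were highest in suspension 1, against 51.1%. Between the culture forms 1 rose and 2 fell (median -0.12), namely the alanyl-tRNA synthetase gene AARS1 (1.37-fold higher, adjusted p = 0.0393) and the genes NARS1 and IARS1 for the asparaginyl and isoleucyl enzymes (1.18- and 1.17-fold lower, adjusted p = 0.0319 and 0.019). The counts became 3 and 4 when blocked on sample number, and 0 and 6 without MALC 1. The AARS1 call was lost without any array except suspension 1 (adjusted p up to 0.124), that of NARS1 without any except MALC 1 (up to 0.118) and that of IARS1 without MALC 2, MALC 3 or suspension 2 (up to 0.0746). Both falls were lost after quantile normalization.

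Of 14 other stress targets, 7 rose and 2 fell (median 0.40). DDIT4, which restrains mTORC1, rose 6.86-fold, BCL2L11, encoding the pro-apoptotic BIM, 2.61-fold, and TXNIP, a thioredoxin-binding protein, 2.32-fold (adjusted p = 0.000616, 0.000561 and 0.00232); DDIT4 and TXNIP are also controlled by oxygen and glucose supply. BCL2L11 probe sets ranged from 0.22 (adjusted p = 0.0855) to 1.83 on the log2 scale. For BCL2L11 and TXNIP, MALC 1 was at 0.691 and 0.707 times the mean of MALC 2 and MALC 3, the opposite of ASNS, TRIB3 and CHAC1. SESN2, an ATF4-induced sestrin, had 479, 352 and 359 in MALC and 403, 394 and 367 in suspension, and missed the threshold (adjusted p = 0.92). The falls of this list numbered 0 without MALC 2, MALC 3 or any suspension array and 1 with the block.

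Of 8 glutathione genes besides CHAC1 and CHAC2, only GGCT, another enzyme of glutathione breakdown, passed, 1.37-fold lower in MALC (5017 ± 713 in MALC and 6819.9 ± 165 in suspension, adjusted p = 0.00674). It fell as CHAC2 did, at a smaller size. Blocked on sample number 3 of the 8 fell, and without MALC 1 the falls numbered 5.

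The ATF6 and IRE1 branches of the unfolded protein response held 5 rises and 8 falls among 16 tested genes (median -0.20). The chaperone and cofactor genes SDF2L1, HSPA5 and DNAJB11 were 3.09-, 1.98- and 1.94-fold lower in MALC (adjusted p = 0.00138, 0.00378 and 0.000194), opposite in direction to DDIT3. HSPA5 had 7736, 4671 and 4786 in MALC and 10622, 11410.2 and 11118 in suspension. MALC 1 was the highest aggregate for HSPA5 too, yet below every suspension sample.

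**Figure D4:**
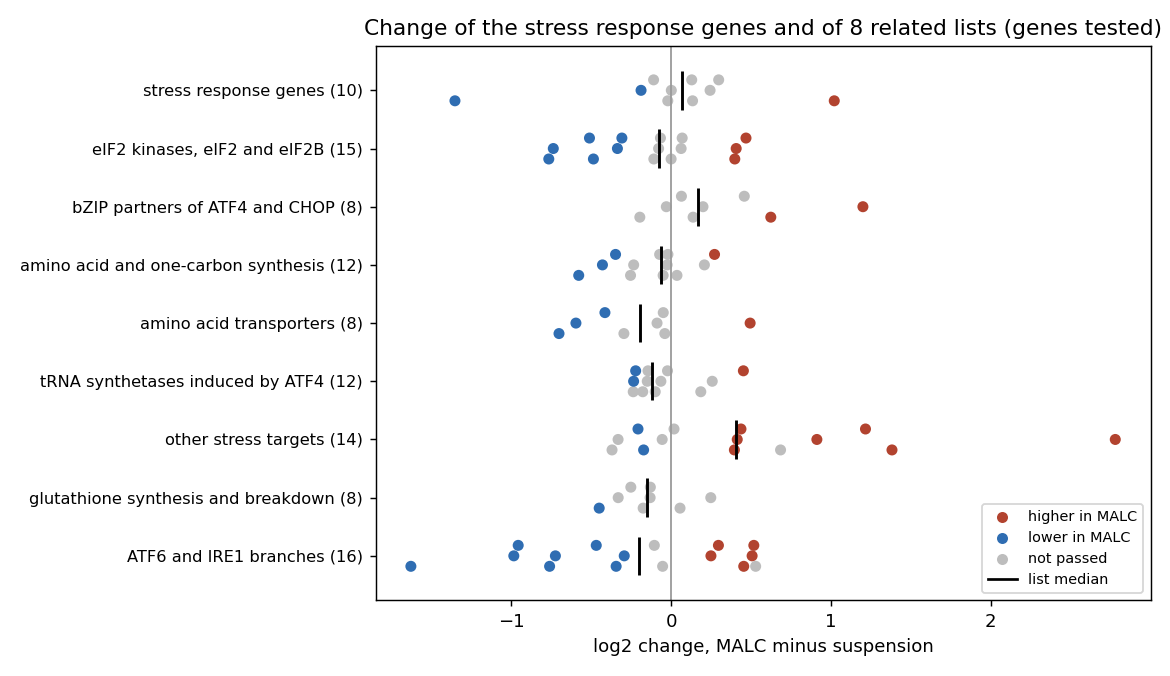
Log2 change, MALC minus suspension, of the 10 stress response genes and of the tested genes of 8 related lists (number in brackets), by brightest probe set; red genes were called higher, blue lower, grey did not pass, and black lines mark medians. DDIT4 lies at 2.78 and SDF2L1 at -1.63, with DDIT3 at 1.02 and CHAC2 at -1.35 at the ends of the top row.

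The genes whose centred log2 profile over the 6 arrays lay closest to that of DDIT3 were CLCN6, LSS, LRRC39, PDK1 and DYNC2LI1, with root mean square differences of 0.106 to 0.126 on the log2 scale. PDK1, a mitochondrial kinase that holds back pyruvate entry, had 3824, 2852 and 3002 in MALC and 1219.6, 1441 and 1426 in suspension. LSS, lanosterol synthase, had 6338, 5384 and 5517 in MALC and 2993, 2926 and 2795 in suspension. LRRC39 was dim, with 92.2, 74.1 and 76.8 in MALC and 34, 41.8 and 31.8 in suspension. Its suspension signals were all under the filter signal of 53.4, so it was tested only through its aggregate signals. All 5 were highest in MALC 1 and higher in every aggregate than in every suspension sample. DDIT3 has both traits, so they follow largely from choosing genes by likeness to it and are no separate result. The likeness is a description over 6 arrays that fall into 2 groups, and none of the 5 belongs to the lists above.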

How the data were processed

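The deposited table holds a linear intensity for each of 54675 probe sets on each array. MAS5 is named per the submitters' processing notes; how it was used, its version, and any scaling of the arrays are not given in the sources used here. RNA was labelled with biotin for hybridisation, per the labels' protocols. Probe sets were named from the platform annotation, with symbols of list genes updated by Entrez identifier through RefSeq (GRCh38.p14, 41037 of 41091 probe sets with 1 symbol); 1801 with several symbols and 11721 with none were not named. The members are those with exactly 1 symbol.

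Values were set to log2(intensity + 16), the 62 controls were left out, and 32768 probe sets with a mean at or above the 40th percentile (a signal of 53.4) were fitted with limma 3.58.1 in R 4.3.3 (lmFit on group alone and eBayes with trend). Two-sided p-values were adjusted by Benjamini-Hochberg over all of them, at a threshold of 0.05. The brightest probe set, by mean log2, stands for a gene. The test was checked on simulated data. No detection calls were used. The number of arrays limits the precision.

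The sample numbers come from the titles. After each group's mean was removed, same-numbered samples 1, 2 and 3 correlated across probe sets at 0.25, 0.17 and 0.14, and the numbers were treated as pairs in an alternative fit. Deviations from a group's mean cancel out within the group, so these values are not independent. The pairing rests mainly on the samples numbered 1. Numbers 2 and 3 were not told apart, since their crossed pairs correlated at 0.18 and 0.14.

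Named genes were all members, up to 3 called genes per list with the largest change, 7 fixed genes and the 5 closest to DDIT3. Members and lists were chosen with earlier results of these data known. Alternatives were other pseudocounts (1 and 64), filters (none, 60th percentile), quantile normalization, median centring, no trend, array weights, the block, 1 probe set per gene, no _s_at or _x_at probe sets, and fits without single arrays or without both arrays numbered 1.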

Additional observations from a re-analysis of the deposited data

How the results depend on the processing

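DDIT3 and CHAC2 kept direction and call under all 18 alternatives, with log2 changes of 0.83 to 1.14 and -1.56 to -1.19. Each of these genes had a single probe set, so no alternative compared probe sets for them. The NUPR1 call was lost in 8 of 16. Of member probe sets, 2 were higher with the replicate block (adding CEBPB) and without both arrays numbered 1. Those lower numbered 4 with array weights and without both arrays numbered 1, and 1 with no filter, with the 60th percentile filter, with the block and without _s_at and _x_at probe sets; leaving out 1 array gave 1 to 4. CHAC1 passed as lower with array weights (-0.29) and without both arrays numbered 1 (-0.36), as did CEBPG 204203_at (-0.54 and -0.60). Over all probe sets, 2611 were higher and 3266 lower with 1 probe set per gene and 4538 and 3835 without _s_at and _x_at probe sets, where fewer were tested; 10306 were lower with array weights. Leaving out 1 array gave 5022 to 7615 higher and 4409 (without MALC 2) to 7450 lower. Of list genes, 12 were higher without _s_at and _x_at probe sets, and 39 lower with array weights and 45 without both arrays numbered 1; leaving out 1 array gave 15 to 18 higher and 17 to 38 lower.

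Signs turned for ATF4 with quantile normalization (0.060), for TRIB3 218145_at with array weights (-0.15) and without both arrays numbered 1 (-0.18, adjusted p = 0.00555) and between -0.26 and 0.14 over single arrays left out, and for ASNS with array weights (-0.039), without both arrays numbered 1 (-0.064) and between -0.16 and 0.30 over single arrays. Over single arrays left out, TRIB3 1555788_a_at ranged from -0.044 to 0.16, CHAC1 from -0.35 to 0.023 and CEBPG 225527_at from -0.0087 to 0.22. By list, the bZIP rises numbered 1 without any 1 of the suspension arrays and the falls 1 without MALC 2; the synthesis rises 0 without MALC 3, suspension 2 or suspension 3 and 2 with the block, and their falls 5 without MALC 1 and 1 without suspension 3; the transporter falls 5 without MALC 1; the tRNA synthetase rises 0 without suspension 2 or suspension 3 or any MALC array, and their falls 0 without MALC 2, MALC 3 or suspension 2 and with quantile normalization, and 1 without trend. The block changed no other call of a member. The cause of these shifts was not tested, and without MALC 1 the MALC spread comes from the nearly alike samples 2 and 3, and without both arrays numbered 1 that of both groups does.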
